A study of Homo sapiens with 8 samples.

Results

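The genes described here mostly encode enzymes that remove methyl groups from histone lysines, remove acetyl groups from them, or add methyl groups to them. They were chosen by a rule on names, with earlier results of these data known: every protein-coding gene whose symbol begins with KDM, KMT or SETD, or with HDAC or SIRT followed by a number, together with EZH1, EZH2 and DOT1L. The annotation holds 61 such genes. Of these, 56 had a probe on the array, among 19056 genes matched in all, and KDM4E, KDM4F, KDM5A, SETD1B and the SETDB2-PHF11 readthrough gene were not analysed here. The Y-linked KDM5D is included in the counts, and its values are not given.

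mRNA was measured in A549 cells, an established line from a human lung carcinoma, on 8 single-dye Agilent whole human genome arrays in 2 series. The EEDS series held a vehicle control and A549 cells given 1.25, 5 or 20 µg/mL of EEDS, the ethanol extract of Descurainia sophia seeds. The other series paired its own vehicle control with A549 cells given 3.75, 15 or 60 nM of helveticoside, a cardiac glycoside, the class of steroid glycosides that block the sodium pump. Each array carried RNA pooled from 3 cultures of that condition. Because a dose had 1 array, no dose has a replicate or a p-value of its own, and precision is limited by how few arrays there are. The sample labels give 48 h with the agent, in a text on cell viability, and the methods give 24 h for the arrays. Because each agent was measured in its own series, the agent cannot be told apart from the series.

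Histone lysine methylation is written by methyltransferases and erased by demethylases, and each enzyme acts on particular lysines. Methylation of H3K4, H3K36 and H3K79 is generally found at transcribed genes, whereas methylation of H3K9, H3K27 and H4K20 is generally linked to silent or compacted chromatin. KDM1A and KDM1B use a flavin cofactor, and the other KDM enzymes carry a JmjC domain that needs iron, oxygen and 2-oxoglutarate. Acetyl groups are removed by the zinc-dependent HDAC enzymes of classes I, II and IV and by the sirtuins, which consume NAD. Several of these enzymes also act on proteins other than histones, and SIRT3, SIRT4 and SIRT5 are mitochondrial.

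Probe spots had a median signal of 182 to 214 on the EEDS arrays and of 223 to 278 on the helveticoside arrays, over a local background of 27 to 34 in the median, and no spot was saturated. The scanner software called 63.3% to 64.9% of probes well above background on the EEDS arrays and 54.5% to 59.5% on the helveticoside arrays. All 5 epithelial markers (KRT8, KRT18, KRT19, EPCAM and CDH1) and all 5 genes known to be abundant in A549 cells were well above background on all 8 arrays, as were PTPRC of 4 leukocyte markers, CDH5 of 3 endothelial markers and COL1A1 of 3 fibroblast markers. Neither of the alveolar type II markers SFTPC and SFTPA1 was well above background on all arrays, and the part of the non-epithelial signals in the results was not tested. Of the 56 members, 48 were well above background on all 8 arrays, 7 on some and 1, HDAC9, on none. All 56 members passed the filter on low values, which asked for 1.4 times the local background or more on an array of each series. A level below is the log2 of the quantile-normalized signal of the brightest probe, and levels of different genes are not comparable.

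A linear trend over the dose steps was tested for every gene with limma, with Benjamini-Hochberg adjustment over the 19046 genes fitted and a threshold of 0.05. With EEDS, 9 members rose and 4 fell, against 7.27% and 7.85% of all genes. The 9 were KDM3A, KDM5C, KDM6B, KDM7A, KMT2B, KMT5A, SETD7, DOT1L and SIRT1, and the 4 were HDAC6, KDM4D, SETD6 and SIRT3. With helveticoside, 7 members rose and 1 fell, against 5.48% and 5.8% of all genes. These 7 were the EEDS genes without KDM3A and KMT5A, and the 1 was SIRT3. Thus 8 members, 14.3%, passed the test with each agent, against 9.15% of all genes. Fits with fewer arrays, which leave 2 residual degrees of freedom, made no single-agent call for any gene. Without the lowest, the middle or the top dose of both series, 0 members passed with EEDS and 0 with helveticoside. Fitted to the 4 arrays of its own series, each agent also had 0 calls. The slopes of the 13 members called with EEDS and of the 8 called with helveticoside kept their sign in each of these fits. In a fit to 1 series the slope equals that of the full fit, so its sign could not change. The fits without a dose reuse most of the same arrays, for genes picked on their slopes there. The kept signs are therefore no separate support.

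The mean of both slopes, which has the smaller error, rose for 12 members (14.5% of all genes) and fell for 7 (15.6%). It added EZH1, KDM6A and KDM5D to the rising genes and KDM1B, KDM8 and SETD9 to the falling genes. By family, 6 of 17 demethylases rose and 3 fell, 5 of 21 methyltransferases and other SETD proteins rose and 2 fell, 1 of 11 zinc-dependent deacetylases fell and none rose, and 1 of 7 sirtuins rose and 1 fell. Under scaling to the 75th percentile of each array the mean slope rose for 16 members and fell for 6 (15.4% and 17.3% of all genes), and on the signal as scanned for 16 and 4 (14.9% and 16.2%). KDM2A and KDM5B rose under both of these alternatives, HDAC2 and KMT2A under the first only, and KMT5B and SETD2 under the second only. With 1 dose of both series left out, the mean slope rose for 8 members and fell for 3 without the lowest dose (7.37% and 7.84% of all genes), and rose for 10 and fell for 1 without the middle dose (5.34% and 6.34%). Without the top dose no gene rose (0.0%) or fell (0.0%).

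A second fit took only the 11493 genes that every array measured well above background, so that both the genes and the adjustment differ from the first. In it, the mean slope rose for 23.3% and fell for 24.4% of them. Of the 48 members in that fit, 13 rose and 5 fell, which is 27.1% and 10.4%. For EEDS the counts were 11 rising members and 4 falling, against 15.0% and 16.3% of these genes, and for helveticoside 6 and 4, against 11.5% and 12.6%. The rising members made up 22.9%, 12.5% and 27.1% of the 48 for EEDS, helveticoside and the mean. For helveticoside and the mean these rising shares lay close to those of all such genes. The falling members made up 8.33%, 8.33% and 10.4%, which is 4, 4 and 5 genes. These shares were not tested. KDM2A, KDM5B and KMT5B rose by the mean slope in this fit and did not pass in the fit of all genes, and KDM6B, EZH1, KDM1B and KDM4D were too dim on some array to enter it. In this fit KDM6A, KMT5B and KDM8 also passed for EEDS, and HDAC6, SETD6 and SETD9 for helveticoside, which they did not in the fit of all genes.

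**Figure D1:**
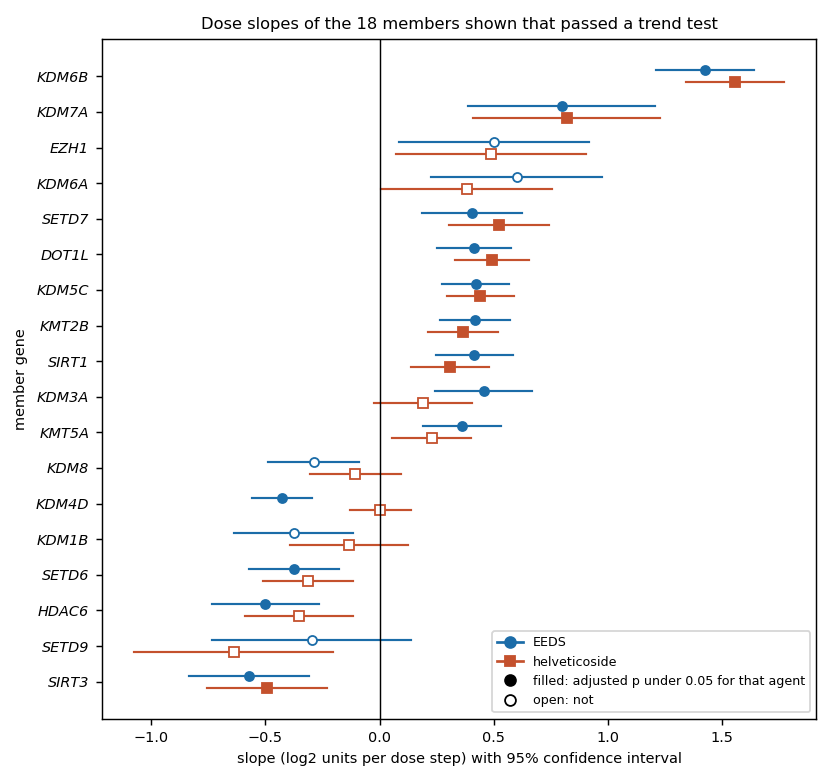
Slope per dose step on the log2 scale (x axis) with its 95% confidence interval for the 18 members shown that passed any trend test (y axis), in circles for EEDS and squares for helveticoside. Filled symbols mark an adjusted p under 0.05 for that agent, and the slopes of KDM6B, 1.42 and 1.56, lie to the right of all others.

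KDM6B, also called JMJD3, and KDM6A, also called UTX, remove the methyl marks that the Polycomb enzymes EZH1 and EZH2 place on H3K27. KDM6B (chr17:7834217-7854796, GRCh38.p14) was at 5.16 on the EEDS control and at 6.74, 7.98 and 9.49 at 1.25, 5 and 20 µg/mL. On the helveticoside arrays it was at 4.91 on the control and at 6.05, 7.94 and 9.47 at 3.75, 15 and 60 nM. Its level was higher at each step of both series and ended close to the same value in both. The log2 ratio to the control was 1.58, 2.82 and 4.33 with EEDS, a 20.2-fold difference at 20 µg/mL. The helveticoside control and the 3.75 nM array were not well above background for this probe, so that KDM6B was at least 5.24-fold higher at 15 nM and at least 15.1-fold higher at 60 nM. The slope was 1.42 ± 0.09 (SE) per dose step with EEDS (limma adjusted p = 0.0129) and 1.56 ± 0.09 with helveticoside (limma adjusted p = 0.0147).

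KDM6A (chrX:44873188-45112779) was at 8.56, 8.999, 9.04 and 10.55 from the EEDS control to 20 µg/mL, and at 8.21, 8.59, 8.64 and 9.46 from the helveticoside control to 60 nM. Most of the difference lay between the middle and the top dose in both series. It was 3.96-fold higher at 20 µg/mL and 2.38-fold higher at 60 nM. Its slope passed the test as the mean of both agents (0.49 ± 0.11 SE, limma adjusted p = 0.0221) and with neither agent alone in the fit of all genes (limma adjusted p = 0.0525 and 0.161). A second, dimmer KDM6A probe had log2 ratios of 1.27 and 0.59 at the top doses.

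The JmjC enzyme KDM7A, which acts on H3K9 and H3K27 (chr7:140084746-140176983), was at 7.56, 8.95, 9.79 and 9.93 over the EEDS steps and at 7.70, 8.07, 9.62 and 9.91 over the helveticoside steps. Most of the difference was reached at the middle dose. The log2 ratios were 1.39, 2.23 and 2.38 with EEDS and 0.37, 1.92 and 2.22 with helveticoside. The slopes were 0.80 ± 0.16 (SE) and 0.82 ± 0.16, with limma adjusted p = 0.0341 and 0.0378. On a logarithmic dose scale neither passed (limma adjusted p = 0.0569 and 0.0558). Its second probe had log2 ratios of 1.93 and 2.39 at the top doses.

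KDM5C, an X-linked H3K4 demethylase (chrX:53176277-53225207), was at 10.47, 11.12, 11.45 and 11.76 over the EEDS steps and at 10.81, 11.07, 11.69 and 12.07 over the helveticoside steps. It was higher at every step, 2.45-fold at 20 µg/mL and 2.39-fold at 60 nM, with slopes of 0.42 ± 0.06 (SE) and 0.44 ± 0.06 (limma adjusted p = 0.0168 and 0.0198). KDM5B, of the same subfamily, was 1.35 log2 units over its control at 20 µg/mL and 0.95 at 60 nM, nearly all of it between the middle and the top dose. It did not pass the test in the fit of all genes (limma adjusted p of the mean slope = 0.079).

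KDM3A, an H3K9 demethylase (chr2:86437044-86492716), was at 7.55, 7.99, 8.17 and 9.01 over the EEDS steps and at 7.53, 7.65, 7.66 and 8.16 over the helveticoside steps. Its slope passed the test with EEDS (0.46 ± 0.09 SE, limma adjusted p = 0.0284) and not with helveticoside (0.19 ± 0.09 SE, limma adjusted p = 0.21). The difference of the 2 slopes was 0.26, with a 95% interval of -0.04 to 0.57, and did not pass the test either.

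Demethylases with a falling trend lay close to the limits of the measurement or of the test. KDM8, a JmjC protein also called JMJD5, was at 10.45, 10.13, 10.04 and 9.52 over the EEDS steps and at 10.78, 10.91, 10.90 and 10.43 over the helveticoside steps. The mean slope was -0.20 ± 0.06 (SE, limma adjusted p = 0.0483), and it did not pass on the signal as scanned, with normexp or under 75th percentile scaling (limma adjusted p = 0.0518, 0.0524 and 0.0717). KDM1B and KDM4D were dim. KDM1B, an H3K4 demethylase of the flavin type, was well above background only on the EEDS control and at 1.25 µg/mL, at 5.40 and 4.85, and was at least 1.51-fold lower at 20 µg/mL; its mean slope was -0.26 ± 0.07 (SE, limma adjusted p = 0.0493), and -0.10 on the signal as scanned (limma adjusted p = 0.114). KDM4D, an H3K9 demethylase, was well above background only on the EEDS control, at 5.04, and the bound at 20 µg/mL was at least 1.17-fold lower. Its fitted EEDS slope of -0.43 ± 0.05 (SE, limma adjusted p = 0.0144) rests on arrays with no such call, and with values floored at the well-above-background limit the slope was -0.06 (limma adjusted p = 0.724).

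The other 8 demethylases shown did not pass a trend test in the fit of all genes. KDM1A, KDM2A, KDM2B, KDM3B, KDM4A, KDM4B, KDM4C and KDM5B spanned log2 ratios of -0.37 to 1.35 at 20 µg/mL and -0.05 to 0.95 at 60 nM. KDM4A was 0.47 to 0.78 over its control at all 6 doses without a further difference between doses.

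**Figure D2:**
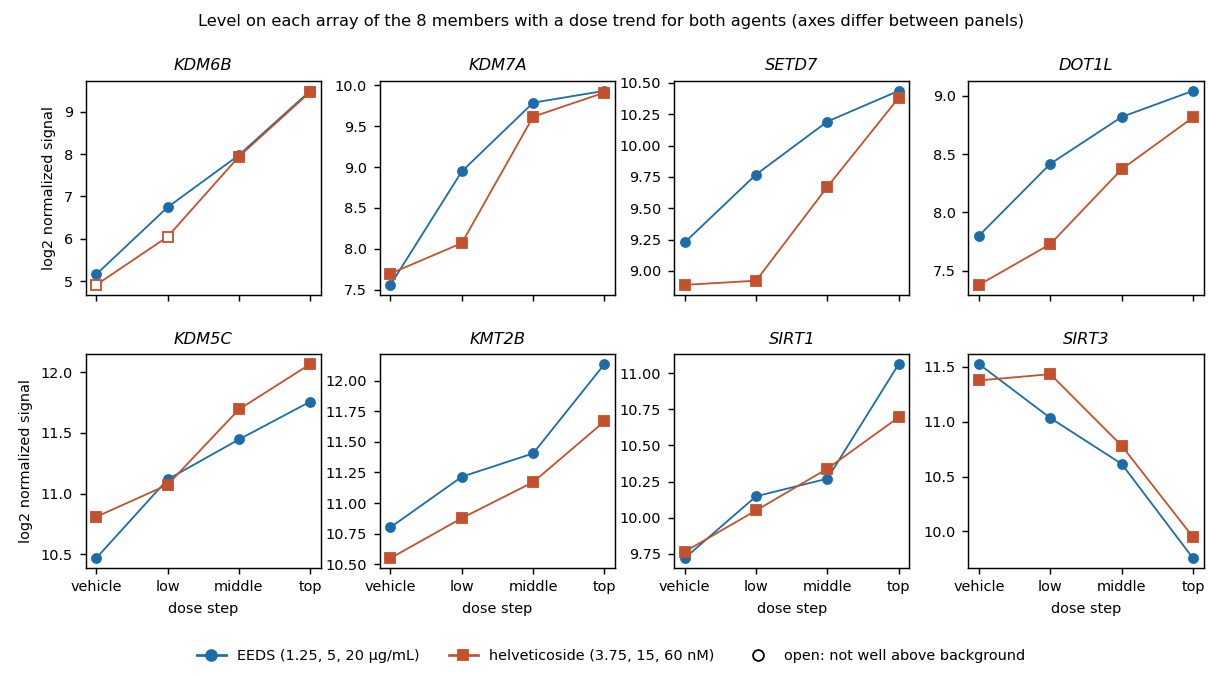
Level of the 8 members with a dose trend for both agents, as log2 normalized signal (y axis) at each dose step (x axis), 1 array per point, with open symbols where the array was not well above background. KDM6B goes from 5.16 to 9.49 with EEDS and from 4.91 to 9.47 with helveticoside, and SIRT3 is the only 1 of the 8 that falls.

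KMT2B, an H3K4 methyltransferase of the MLL family (chr19:35718003-35738878), was at 10.80, 11.21, 11.41 and 12.14 over the EEDS steps and at 10.55, 10.88, 11.17 and 11.67 over the helveticoside steps. It was 2.52-fold higher at 20 µg/mL and 2.17-fold higher at 60 nM, with slopes of 0.42 ± 0.06 (SE) and 0.37 ± 0.06 (limma adjusted p = 0.0184 and 0.028). Its second probe moved the same way but less, by 0.60 and 0.61 log2 units at the top doses. With the mean of both probes the helveticoside slope did not pass (0.28, limma adjusted p = 0.0682).

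SETD7, which methylates H3K4 and many other proteins (chr4:139492974-139556219), was at 9.23, 9.77, 10.19 and 10.44 over the EEDS steps and at 8.89, 8.92, 9.67 and 10.38 over the helveticoside steps. The lowest helveticoside dose left it at its control level and the lowest EEDS dose did not. The slopes were 0.41 ± 0.09 (SE) and 0.52 ± 0.09 (limma adjusted p = 0.0383 and 0.0279).

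The other 5 genes listed with KMT2B and SETD7 were KMT2A, KMT2C, KMT2D, KMT2E and SETD1A, and enzyme activity was not measured. They had log2 ratios of -0.09 to 1.06 at 20 µg/mL and -0.05 to 0.35 at 60 nM, and none passed the test in the fit of all genes. Their probes differed: at 20 µg/mL the brightest KMT2C probe was at 1.06 and the second at 0.67, the brightest KMT2A probe at 0.78 and 2 others well above background on all arrays at 1.15 and 1.002, and the brightest KMT2E probe at 0.63 and its other 3 between 0.99 and 1.38.

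DOT1L, the enzyme that methylates H3K79 (chr19:2163933-2232578), was at 7.80, 8.42, 8.82 and 9.04 over the EEDS steps and at 7.38, 7.73, 8.37 and 8.81 over the helveticoside steps. It was higher at every step and ended 2.36-fold and 2.7-fold over its controls. The slopes were 0.41 ± 0.06 (SE) and 0.49 ± 0.06 (limma adjusted p = 0.0199 and 0.0194), and a second probe had log2 ratios of 1.74 and 1.47 at the top doses. On the authors' processed values the helveticoside slope was 0.33 and did not pass (limma adjusted p = 0.052).

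KMT5A, which places the first methyl group on H4K20 (chr12:123384132-123409353), was at 9.97, 10.54, 10.62 and 11.15 over the EEDS steps and at 10.18, 10.32, 10.41 and 10.91 over the helveticoside steps. It passed the test with EEDS (slope 0.36 ± 0.07 SE, limma adjusted p = 0.0294) and not with helveticoside (0.23 ± 0.07 SE, limma adjusted p = 0.0955). KMT5B, which adds further methyl groups to H4K20, was 1.48 log2 units over its control at 20 µg/mL and 0.66 at 60 nM, and KMT5C, with the same activity, was at -0.60 and -0.17. Neither passed the test in the fit of all genes.

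EZH1 and EZH2 are alternative catalytic subunits of Polycomb repressive complex 2, which methylates H3K27. EZH1 (chr17:42700275-42745040) was at 7.11, 7.96, 8.21 and 8.69 over the EEDS steps and at 6.68, 6.21, 7.66 and 7.83 over the helveticoside steps, where the 3.75 nM array was not well above background. Its mean slope was 0.49 ± 0.12 (SE, limma adjusted p = 0.0292), and it was 3-fold higher at 20 µg/mL and 2.21-fold higher at 60 nM. EZH2 did not pass the test: its log2 ratios were -0.07, -0.95 and 0.20 with EEDS and -0.39, -1.16 and -0.76 with helveticoside, lowest at the middle dose of each agent.

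SETD2, which places the trimethyl mark on H3K36 (chr3:47016436-47164840), was 2.96-fold higher at 20 µg/mL and 2.03-fold higher at 60 nM. It was at 7.49, 7.91, 7.96 and 9.05 over the EEDS steps and at 7.03, 6.41, 7.00 and 8.05 over the helveticoside steps, with the 3.75 nM array not well above background, and its mean slope did not pass the test (0.42 ± 0.14 SE, limma adjusted p = 0.069). The H3K9 enzymes SETDB1 and SETDB2 lay below their controls at both top doses, by -0.51 and -0.35 log2 units for SETDB1 and by -0.90 and -1.10 for SETDB2, and neither passed the test. The 2 SETDB1 probes disagreed in sign, the dimmer probe being at 1.03 and 0.54.

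Of the 5 other SETD proteins, 2 fell by the mean slope, against 15.6% of all genes. SETD6, which methylates the NF-kappa B subunit RELA (chr16:58515479-58523842), was at 9.22, 8.72, 8.53 and 8.04 over the EEDS steps and at 9.25, 8.57, 8.64 and 8.18 over the helveticoside steps. It was lower than its control at all 6 doses, with a slope of -0.37 ± 0.08 (SE, limma adjusted p = 0.0356) for EEDS and -0.31 ± 0.08 (limma adjusted p = 0.061) for helveticoside, and its second probe was at -0.85 and -1.05 at the top doses. SETD9 (chr5:56909260-56928900) was at 8.48, 8.20, 7.30 and 7.79 over the EEDS steps and at 8.39, 8.43, 6.94 and 6.76 over the helveticoside steps. Its mean slope was -0.47 ± 0.12 (SE, limma adjusted p = 0.0389), and no single agent passed the test in the fit of all genes. SETD3, SETD4 and SETD5 did not pass it, although SETD4 was 1.404 log2 units over its control at 20 µg/mL.

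Of the 11 zinc-dependent deacetylases, the mean slope fell for 1, HDAC6, and rose for none, against 15.6% and 14.5% of all genes. HDAC6, a largely cytoplasmic enzyme known for deacetylating tubulin (chrX:48801398-48824982), was at 10.999, 10.74, 10.22 and 9.51 over the EEDS steps and at 10.76, 10.81, 10.43 and 9.71 over the helveticoside steps. Its slope was -0.50 ± 0.09 (SE, limma adjusted p = 0.0287) with EEDS and -0.35 ± 0.09 (limma adjusted p = 0.0717) with helveticoside. The 2 HDAC6 probes did not move together. The dimmer probe, well above background on 7 arrays, had log2 ratios of 0.07 and -0.39 at the top doses, and with the mean of both probes the EEDS slope did not pass the test (-0.27, limma adjusted p = 0.232).

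Class I enzymes HDAC1, HDAC2, HDAC3 and HDAC8 stayed within -0.62 to 0.42 log2 units of control at all 6 doses on the brightest probe. These are the main nuclear deacetylases, and none passed the test in the fit of all genes. Another HDAC8 probe, well above background on all 8 arrays, was at -0.72 at 1.25 µg/mL. A dim second HDAC2 probe, well above background on 4 arrays, was at 1.39 at 60 nM. Among the class IIa enzymes, HDAC4 was at a log2 ratio of -1.18 at 20 µg/mL and -0.25 at 60 nM, HDAC5 was at 0.75 and 0.37, and HDAC7 at 0.08 and 0.35. The HDAC4 probes differed: a dimmer probe, well above background on all 8 arrays, was at -0.62 and -0.80, under 2-fold with both agents. HDAC9 was not well above background on any array, so that its ratios, which enter the counts and medians over the 56 members, cannot be read. HDAC10 and HDAC11 had top-dose log2 ratios of -0.18 and -0.04 with EEDS and -0.16 and 0.23 with helveticoside.

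SIRT1 and SIRT3 passed the test with each agent and had opposite signs. SIRT1, a nuclear deacetylase (chr10:67884656-67918390), was at 9.72, 10.15, 10.27 and 11.06 over the EEDS steps and at 9.76, 10.05, 10.34 and 10.70 over the helveticoside steps. It was higher at every step, 2.54-fold at 20 µg/mL and 1.91-fold at 60 nM, and its slopes were 0.42 ± 0.07 (SE) and 0.31 ± 0.07 (limma adjusted p = 0.0216 and 0.0468). The helveticoside slope did not pass under 75th percentile scaling, with quantile normalization within each series or on the authors' processed values (0.31, 0.30 and 0.28, limma adjusted p = 0.0544, 0.0541 and 0.0619).

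SIRT3, the main mitochondrial deacetylase (chr11:215030-236931), was at 11.52, 11.03, 10.62 and 9.76 over the EEDS steps and at 11.38, 11.43, 10.78 and 9.95 over the helveticoside steps. The level fell at each EEDS step and from 15 nM onward with helveticoside, to 3.4-fold and 2.69-fold under the controls. The slopes were -0.57 ± 0.10 (SE) and -0.49 ± 0.10 (limma adjusted p = 0.0269 and 0.0426).

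SIRT2, SIRT4, SIRT5, SIRT6 and SIRT7 did not pass a trend test. On the brightest probe, their log2 ratios lay between -0.63 and 0.55 at 20 µg/mL and between -0.34 and 0.40 at 60 nM. SIRT5 depended on the probe: the 2 brightest of its 4 probes had log2 ratios of -0.63 and -1.44 at 20 µg/mL, and of -0.10 and -1.26 at 60 nM.

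The members spread out with dose. At the lowest dose, KDM6B and KDM7A were over 2-fold higher with EEDS (4.22% of all genes) and none was over 2-fold lower (3.66%). KDM6B alone was over 2-fold higher with helveticoside (3.38%), on 2 arrays that were not well above background, and none was lower (4.31%). At the middle dose, 4 members were higher with EEDS (7.33%), namely KDM6B, KDM7A, DOT1L and EZH1, and SETD9 was lower (8.47%); with helveticoside KDM6B and KDM7A were higher (7.08%) and EZH2 and SETD9 lower (8.06%).

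At 20 µg/mL EEDS, 17 members were over 2-fold higher and 6 lower, against 13.3% and 14.5% of all genes. The bounds of KDM1B and KDM4D, 2 of these 6, are under 2-fold. At 60 nM helveticoside, 10 members were higher and 5 lower, against 10.8% and 12.8%. Among genes well above background on all 8 arrays, 14 of 48 members were higher and 4 lower at 20 µg/mL (14.3% and 16.2% of such genes), and 7 were higher and 5 lower at 60 nM (10.9% and 13.3%). The median log2 ratio of the 56 members was 0.24 at 20 µg/mL and 0.21 at 60 nM, against 0.02 and -0.00 for all genes.

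The dose step at which members differed was not the same for all. The top dose was over 2-fold higher than the middle dose for 8 members with EEDS (5.42% of all genes) and for 2, KDM6B and SETD2, with helveticoside (4.92%). It was over 2-fold lower for HDAC4 and SETDB2 with EEDS (5.83%) and for SETDB2 with helveticoside (5.97%). KDM6A, SETD2, KMT5B, KDM5B and SETD4 were at most 0.48 log2 units over their controls at the lower EEDS doses and 1.35 to 1.98 at the top dose, whereas KDM7A and DOT1L had most of theirs at the middle dose. The level was higher at every step with both agents for 10 members (6.97% of all genes), namely KMT2B, SETD7, DOT1L, KMT5A, KDM3A, KDM5C, KDM6A, KDM6B, KDM7A and SIRT1, and lower at every step with both agents for none (6.6%).

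**Figure D3:**
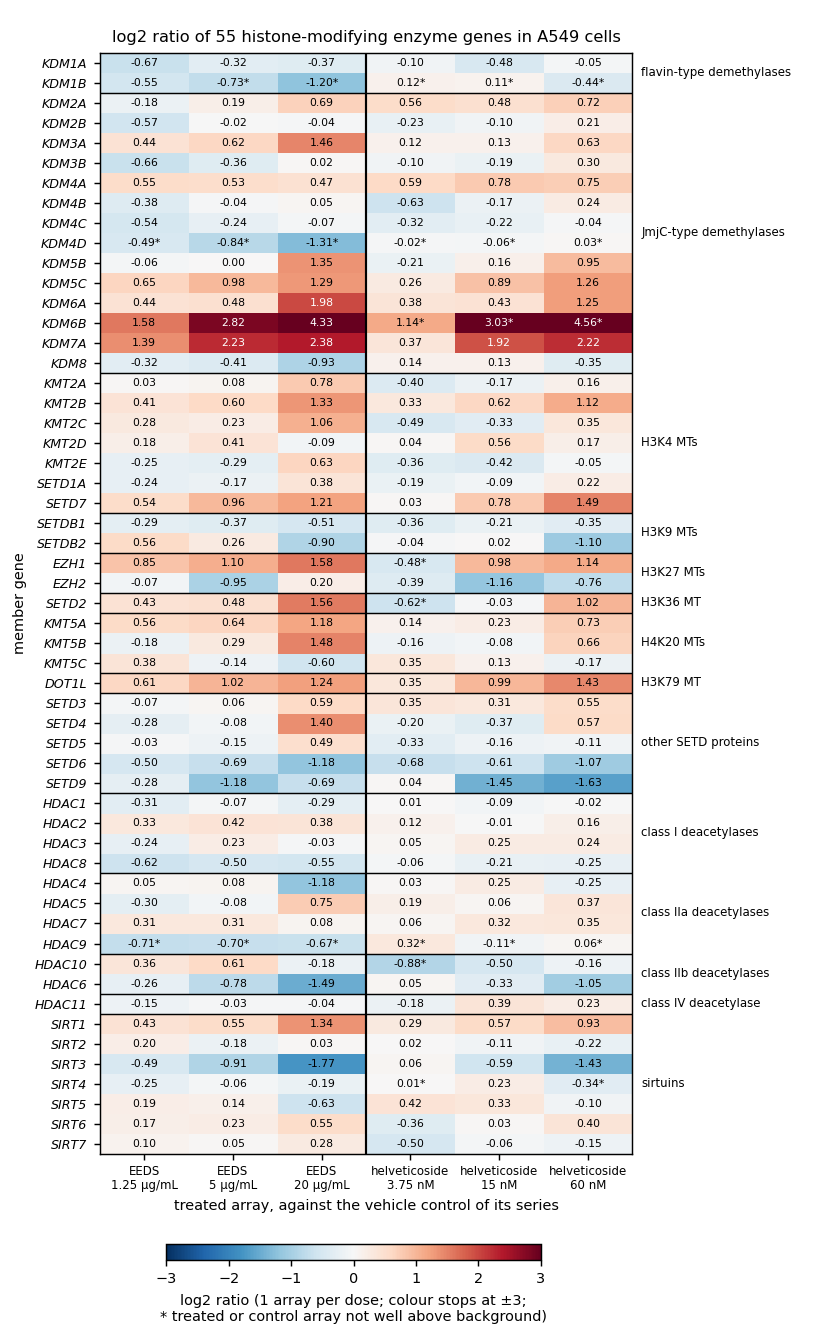
Log2 ratio of each treated array to the vehicle control of its series (columns, by agent and dose) for 55 members (rows, grouped by role), 1 array per cell, with an asterisk where the treated or control array was not well above background. Each row uses the brightest probe of its gene. KDM6B and KDM7A are the reddest rows, with 4.33 and 2.38 at 20 µg/mL, and the class I deacetylase rows stay between -0.62 and 0.42.

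The series share no array, and each ratio uses its own control. At both top doses, 10 members were over 2-fold higher (7.38% of all genes) and 3, HDAC6, SETD6 and SIRT3, over 2-fold lower (9.66%). Opposite signs at the top doses were found for 11 members, against 23.2% of all genes, none of them over 2-fold with both agents. Of these, KDM4D was well above background on 1 of the 4 arrays compared and HDAC9 on none. Across the 56 members, Pearson's r between the EEDS and helveticoside log2 ratios was 0.364 at the lowest, 0.877 at the middle and 0.893 at the top doses, against 0.27, 0.663 and 0.784 across all genes. These describe genes on the same arrays, which are not independent. The sets also differ: 48 of the 56 members and 11493 of the 19046 genes were well above background on all 8 arrays. KDM6B had the largest member ratio at each dose, its helveticoside control was not well above background, and r without it is not given.

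No member had a difference of slopes that passed the test, and neither did any other gene (0.0%). At an unadjusted p under 0.05 there was 1 member, KDM4D, against 2.76% of all genes. The 95% interval of the slope difference, EEDS minus helveticoside, was -0.44 to 0.17 for KDM6B, -0.60 to 0.56 for KDM7A, -0.31 to 0.15 for DOT1L and -0.45 to 0.29 for SIRT3, which leaves room for differences of the size of many of the slopes themselves. Between the 2 vehicle controls, no member was over 2-fold higher in the helveticoside series (5.76% of all genes) and 1 was lower, KDM4D (4.64%), by -1.98 log2 units on an array not well above background. The next largest difference between the controls was that of SIRT2, a mostly cytoplasmic deacetylase, at -0.98 log2 units.

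**Figure D4:**
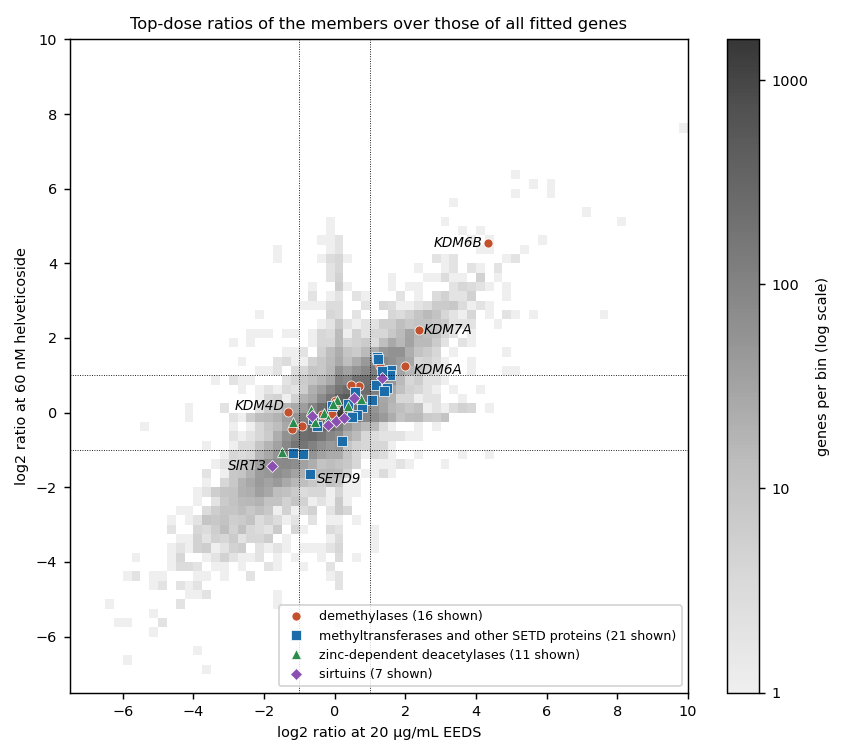
Log2 ratio at 20 µg/mL EEDS (x axis) against that at 60 nM helveticoside (y axis) for 55 members, coloured by family, over the density of all 19046 fitted genes in grey (log scale), with dotted lines at 2-fold. KDM6B lies at 4.33 and 4.56, KDM7A at 2.38 and 2.22 and SIRT3 at -1.77 and -1.43, while KDM4D has -1.31 with EEDS and 0.03 with helveticoside. The helveticoside control of KDM6B and all KDM4D arrays but the EEDS control were not well above background, so that these points stand for bounds or, for KDM4D with helveticoside, for no ratio.

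Most KMT2, EZH and HDAC enzymes work in complexes, and genes of those complexes were tested on the mean slope, for which 14.5% of all genes rose and 15.6% fell. Of 9 measured subunits of Polycomb repressive complex 2, the mean slope rose for PHF1 and AEBP2 and fell for RBBP4 and RBBP7. Of 13 subunits of the COMPASS complexes that carry KMT2 enzymes, RBBP5, WDR82 and HCFC2 rose and CXXC1, MEN1, PAGR1, PSIP1 and ASH2L fell. Of 24 corepressor subunits that carry deacetylases and demethylases, 3 rose and 5 fell, the steepest fall being that of GPS2 (-0.55 ± 0.06 SE, limma adjusted p = 0.00443).

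Some methyltransferases whose names fall outside the rule fell more steeply than any member. Of 15 lysine methyltransferases, ASH1L rose and EHMT2, NSD1, SETMAR and SMYD3 fell. EHMT2, the H3K9 methyltransferase G9a, was -3.23 log2 units from its control at 20 µg/mL and -2.40 at 60 nM (mean slope -0.91 ± 0.09 SE, limma adjusted p = 0.00357). Of 8 arginine methyltransferases, PRMT3 rose and PRMT2, PRMT5 and PRMT7 fell, and PRMT7 was at -2.91 and -2.57 at the top doses. Of 13 JmjC proteins outside the rule, JMJD1C, PHF2, PHF8 and HSPBAP1 rose and JMJD4, JMJD8, RIOX1 and HR fell.

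RefSeq windows of 300 bases, from 250 bases before an annotated start site to 50 after it (GRCh38.p14), were read for genes that moved together, to show what lies at their starts. The letters searched, on both strands, were TGANTCA for AP-1, TGACGTCA for the cAMP response element, CACGTG for the E-box and GCGTGGGCG for EGR factors. They were found in 7.71%, 1.85%, 7.26% and 0.795% of all 35116 windows, and in 5, 1, 9 and 1 of the 80 windows of members. Among the 14 windows of members with a rising mean slope, 2 held the AP-1 letters (KDM3A and KDM6A) and 2 the E-box (KDM6A and SIRT1), and among the 12 windows of falling members 1 held the E-box (SETD6). Neither of the 2 KDM6B windows held any of these letters, and DOT1L had no window in the table. A match is a description of the sequence, not of binding. Shown are the KDM6B window at chr17:7833967-7834266 (plus strand), as the steepest riser, and the windows with matches of KDM6A at chrX:44872938-44873237, SIRT1 at chr10:67884406-67884705 and SETD6 at chr16:58515267-58515566 (all on the plus strand), with the matched letters in capitals. In KDM6A the AP-1 letters begin at position -110 and the E-box at -95 from the start site the window was drawn on, in SIRT1 the E-boxes begin at -123 and -44, and in SETD6 at -66.
KDM6B: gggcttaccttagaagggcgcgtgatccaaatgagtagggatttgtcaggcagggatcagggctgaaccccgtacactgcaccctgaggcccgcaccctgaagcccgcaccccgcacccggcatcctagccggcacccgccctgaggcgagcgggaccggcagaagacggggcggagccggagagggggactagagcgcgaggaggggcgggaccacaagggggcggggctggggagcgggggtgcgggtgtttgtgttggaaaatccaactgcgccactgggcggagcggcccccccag
KDM6A: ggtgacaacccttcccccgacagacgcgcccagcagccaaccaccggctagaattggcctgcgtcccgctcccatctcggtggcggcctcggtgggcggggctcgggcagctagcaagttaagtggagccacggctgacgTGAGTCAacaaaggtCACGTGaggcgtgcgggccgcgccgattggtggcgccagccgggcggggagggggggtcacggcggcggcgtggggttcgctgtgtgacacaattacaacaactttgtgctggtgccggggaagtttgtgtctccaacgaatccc
SIRT1: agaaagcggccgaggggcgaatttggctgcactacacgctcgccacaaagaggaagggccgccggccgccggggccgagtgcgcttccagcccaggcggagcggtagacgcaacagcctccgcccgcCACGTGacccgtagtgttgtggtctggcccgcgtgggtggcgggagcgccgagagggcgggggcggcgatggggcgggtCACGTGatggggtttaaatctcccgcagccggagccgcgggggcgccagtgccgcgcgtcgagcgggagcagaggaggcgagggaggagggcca
SETD6: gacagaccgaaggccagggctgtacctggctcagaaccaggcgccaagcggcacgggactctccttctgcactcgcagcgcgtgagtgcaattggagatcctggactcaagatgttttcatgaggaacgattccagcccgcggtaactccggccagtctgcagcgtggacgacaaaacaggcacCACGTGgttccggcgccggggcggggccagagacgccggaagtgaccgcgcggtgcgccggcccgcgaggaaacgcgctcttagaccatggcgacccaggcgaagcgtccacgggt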

How the data were processed

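A549 mRNA was measured on 8 single-dye arrays. The authors deposited, for each array, the Agilent Feature Extraction intensity per spot (median signal, local background, a background-subtracted processed signal, and the software's spot calls), and a value table of processed intensity. Per the methods, they kept spots over 1.4 times the local background and quantile-normalized them. The mean signal was not used. No slide or scan date is in the files, so batches within a series were not examined.

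Control and outlier spots were left out, and 22 probes with outlier spots throughout were dropped of 34127. The processed signal was averaged per probe, quantile-normalized over the 8 arrays and put on the log2 scale. Probes were matched by accession to RefSeq genes of GRCh38.p14 (24812 probes, 19056 genes), and 4797 genes with several probes took the brightest. Genes had to reach 1.4 times the local background on an array of each series, and a value below this limit was raised to the lowest detected signal of its array. Where the treated or control array was not well above background, a bound replaces the fold: the brighter level against the higher of the dim value and the lowest signal well above background.

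Samples were grouped by agent and dose. Trends were fitted with limma 3.58.1 (R 4.3.3; trend and robust estimation) to all 8 arrays: each series had an intercept and a slope on the dose step, which left 4 residual degrees of freedom. The fit treats departures from a straight line as error. P-values were Benjamini-Hochberg adjusted over all 19046 genes, with a threshold of 0.05, and the fit was tested on simulated data. Python 3.11.15 (numpy 2.4.6, pandas 2.3.3) gave the remaining values. The members and gene lists were chosen with earlier results of these data known. Levels are given for the 19 members that passed a trend test, were over 2-fold at both top doses in one direction with all 4 of those arrays well above background, or went over 2-fold in opposite directions. These levels cover all arrays, except that for KDM1B and KDM4D only those well above background are given. Alternatives were other signals, background corrections, scalings, filters, probe rules, dose scales, thresholds and sets of arrays.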

Additional observations from a re-analysis of the deposited data

Results flagged for a closer look

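SIRT7, a nuclear sirtuin, stood above its control at all 3 EEDS doses, with log2 ratios of 0.10, 0.05 and 0.28, and below its control at all 3 helveticoside doses, with -0.50, -0.06 and -0.15. It was well above background on all 8 arrays. The difference of its slopes, EEDS minus helveticoside, was 0.07905 per dose step, with a 95% interval of -0.23 to 0.39, and did not pass the test (limma unadjusted p = 0.549). Its helveticoside control lay 0.45 log2 units below its EEDS control (-0.45), a difference larger in size than 5 of these 6 ratios.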

How the results depend on the processing

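With the 4 arrays of 1 series, and without the lowest, middle or top dose, 0 members passed for EEDS (13 with all arrays) and 0 for helveticoside (8). The same fits made 0 single-agent calls over all genes. The mean slope called 11 members in place of 19 without the lowest dose, 11 without the middle dose and 0 without the top dose. The slope difference called 0 members under every alternative run. At 20 µg/mL EEDS 23 members passed 2-fold and 5 passed 3-fold. At 60 nM helveticoside the 15 members over 2-fold became 9 on the signal as scanned, 9 with normexp, 6 on the authors' processed values, 23 at 1.5-fold and 3 at 3-fold. Between the controls, the 1 member over 2-fold became 0 on the signal as scanned, 0 with normexp, 0 among genes well above background throughout, 2 with the mean of all probes, 6 with quantile normalization within each series and 8 on the authors' values. Shares of all genes at these other settings are not given, so these counts do not show whether members differed from all genes. The mean slope of KDM4D turned from -0.21 to 0.014471 on the signal as scanned and to 0.01999 with normexp. Under scaling to the 75th percentile the median of all genes was at up to -0.36 log2 units (20 µg/mL EEDS). Of 560 slopes of named members recomputed, 420 kept their sign and their side of the threshold and 138 no longer passed, 117 of these with fewer arrays. No paired analysis was possible because each dose has 1 array and no replicate number. The flooring at the well-above-background limit and the alternatives for the controls were chosen after seeing the data. The number of arrays, and the dim signals of KDM1B, KDM4D, HDAC9 and, on 2 helveticoside arrays, KDM6B, limit these results.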
